A study of Rattus with 12 samples.

Results

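The genes described here carry the corticosteroid response of the kidney tubule and form the epithelial sodium channel (ENaC), its classical end point. They are the mineralocorticoid receptor Nr3c2, the glucocorticoid-inactivating enzyme Hsd11b2, the steroid-induced genes Sgk1, Cnksr3 and Tsc22d3, the ubiquitin ligase Nedd4l, and the channel subunits Scnn1a, Scnn1b and Scnn1g. They were chosen by name, as gene rows whose gene column holds 1 of 10 symbols, with earlier results of these data known. Of the 10 symbols, 9 matched 1 row each among the 42915 rows of the gene table, and the glucocorticoid receptor gene Nr3c1 was not analysed here. All 9 rows were among the 13253 that the authors tested.

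Aldosterone and glucocorticoids enter the tubule cell and bind nuclear receptors that switch on target genes. Hsd11b2 converts corticosterone, the main glucocorticoid of the rat, into an inactive form and so keeps the mineralocorticoid receptor available for aldosterone. Among the induced proteins, the kinase Sgk1 phosphorylates the ligase Nedd4l, which otherwise tags ENaC for removal from the apical membrane, and the scaffold Cnksr3 and the leucine zipper protein Tsc22d3 (GILZ) take part in the same regulatory complex. In the kidney ENaC is best known from principal cells of the connecting tubule and collecting duct, while the thick ascending limb takes up sodium mainly through the cotransporter Slc12a1.

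RNA came from medullary thick ascending limbs of 12 male rats, picked by hand from digested inner stripe of the outer medulla, with 1 stranded total-RNA library per animal. One group was the Dahl salt-sensitive inbred strain SS/JrHsdMcwi (SS, 6 animals). The other was its consomic partner SS-Chr 1BN/Mcwi (SS.BN1, 6 animals), an SS background that carries the whole of chromosome 1 from the Brown Norway strain. All were 7 weeks old, ate a 0.4% NaCl diet and received no other treatment, so neither steroid levels nor salt intake were manipulated. A whole chromosome differs between the strains, and a difference cannot be assigned to a single locus from these groups.

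Libraries held 42.3 to 59.8 M reads, of which 84.4 to 86.4% mapped. The percentage mapped averaged 85.8 ± 0.339 (SD, n = 6) in SS and 85.3 ± 0.522 (SD, n = 6) in SS.BN1, and an exact permutation test gave a two-sided p of 0.0649. The expression tables give 1 FPKM value (fragments normalised to transcript length and library size) per strain and row. Each FPKM below is that single authors' value and carries no error between animals, and "called" means that the authors' q, their adjusted p, was under 0.05. Ratios are SS over SS.BN1.

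The tissue label was checked against 11 defining markers of the thick ascending limb, all of which were detected. Their summed level was 12792 FPKM in SS.BN1 and 14710 in SS, and the authors' deposited table held no call and no unadjusted p under 0.05 for them. Over all tested rows these shares were 3.42% and 7.55%, so their absence among 11 genes says little about equal tissue content. RNA of principal cells was present as well. The 7 markers of that cell type (Aqp2, Aqp3, Aqp4, Fxyd4, Avpr2, Elf5 and Gata3) summed to 286 FPKM in SS.BN1 and 225 in SS, and none was at 0. In bulk RNA, fewer cells of a type and less RNA per cell cannot be told apart.

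Cnksr3 was the 1 gene of the 9 that the authors called, and it was 6.75-fold higher in SS. The other 8 genes lay between 1.32-fold lower and 1.27-fold higher in SS, and none of them was called. By comparison, 3.42% of all tested rows were called, so 1 call among 9 genes says little about the group as a whole. The median log2 ratio of the 9 was 0.09, beside 0.0011 over all tested rows. Values were higher in SS for 5 of the 9 and higher in SS.BN1 for 4.

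**Figure D1:**
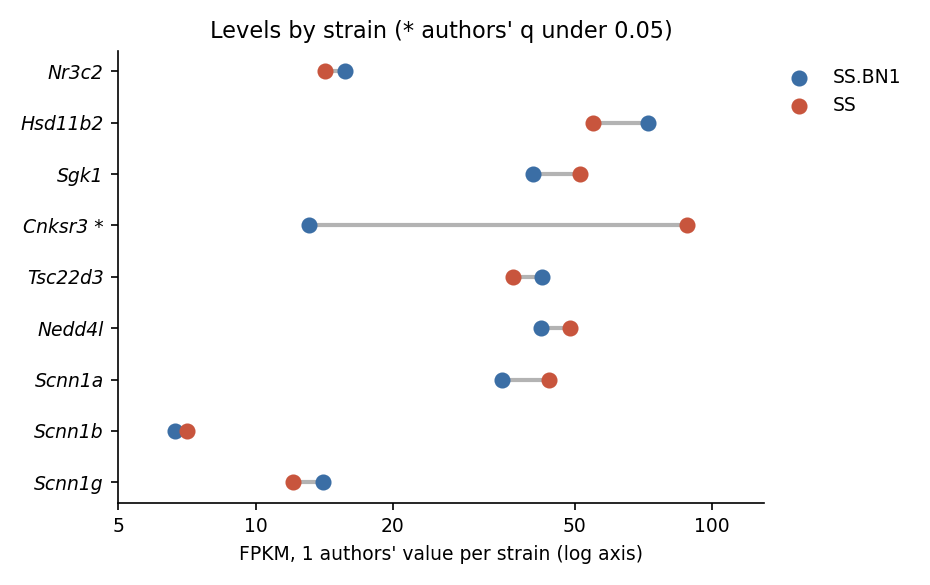
Level of each gene in FPKM on a log axis, with 1 authors' value per strain (blue SS.BN1, red SS) joined by a grey line. The Cnksr3 pair spans 13.1 to 88.2 FPKM, while each of the other 8 pairs lies within 1.32-fold.

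The mineralocorticoid receptor Nr3c2, the ligand-activated transcription factor that binds aldosterone, stood at 15.7 FPKM in SS.BN1 and 14.2 in SS. The log2 ratio was -0.14, with p = 0.529 and q = 1.00 in the authors' deposited table. The locus (chromosome 19, 34407923 to 34752695, coordinates as deposited) had 4 isoforms, of which only 1 carried the gene's name and the other 3 were assembled without a name. The most abundant was an unnamed one at 9.35 FPKM in SS.BN1 and 9.48 in SS, or 59.7% and 66.7% of the locus total. The named isoform had 3.72 FPKM in SS.BN1 and a slightly lower value in SS, 23.7% and 23.9% of the total, so the receptor's annotated transcript held a minor share of the locus in both strains.

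Hsd11b2, the enzyme that shields the receptor from glucocorticoid, was the most abundant of the 9 genes in SS.BN1 and had the second highest value in SS, after Cnksr3. Its level was 72.6 FPKM in SS.BN1 and 54.8 in SS, 24.5% lower in SS. The unadjusted p was 0.0498 and the q 0.659 in the authors' deposited table, so the difference was not called. Over all tested rows, 7.55% had an unadjusted p under 0.05 there. On the per-length FPKM scale the enzyme stood 4.63 times above the receptor Nr3c2 in SS.BN1 and 3.86 times above it in SS.

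Hsd11b2 had the lower value in SS, as did the markers of principal cells, a cell type in which the enzyme is abundant. All 7 of those markers had the lower value in SS, with a median log2 ratio of -0.37, against -0.40 for Hsd11b2. Of the 7, 1 was called lower in SS (0.0981% of all tested rows were called in that direction): Aqp2, the vasopressin-regulated water channel, at 78.3 FPKM in SS.BN1 and 48.1 in SS. The most abundant of them, Fxyd4, a regulator of the sodium pump, had 90.8 and 85.0 FPKM and was not called. The 6 tested intercalated cell markers, from the neighbouring cell type of the collecting duct, were also all lower in SS, with a median log2 ratio of -0.28 and no call (1 had an unadjusted p under 0.05 in the authors' deposited table). Lower values in SS were not particular to these 2 cell types. Of 7 tested endothelial markers 5 were lower and 2 higher in SS, with a median log2 ratio of -0.19. The 7 tested immune markers also had 5 lower and 2 higher, with a median of -0.27. The part of any of these cell types in the Hsd11b2 values was not tested.

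Hsd11b2 (chromosome 19, 37476095 to 37481307, as deposited) had 3 isoforms, all annotated to it. A single one held 93.3% of the gene's FPKM in SS.BN1 and 91.6% in SS. That isoform stood at 67.7 and 50.2 FPKM, with p = 0.0418 and q = 0.999 in the authors' deposited table. The shares of the 3 isoforms moved by at most 2.2 percentage points between strains.

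Sgk1, the serum- and glucocorticoid-regulated kinase, stood at 40.5 FPKM in SS.BN1 and 51.3 in SS. The value was 26.6% higher in SS (log2 ratio 0.34), with p = 0.102 and q = 1.00 in the authors' deposited table. The gene lies on chromosome 1 (24185435 to 24302298, as deposited), the chromosome exchanged between the strains. Its main isoform (ENSRNOT00000016121) had 30.2 FPKM in SS.BN1 and 41.8 in SS, with an unadjusted p of 0.0626 and q of 0.999 in the authors' deposited table. The share of that isoform was 74.5% in SS.BN1 and 81.5% in SS, and the 2 isoforms without a name each had the lower value in SS.

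Sgk1 is also an early-response gene in many cells, induced by serum and stress as well as by steroids. Of 12 tested immediate early genes of other families, 11 were called higher in SS, against 3.32% of all tested rows, and their median log2 ratio was 0.99. The Sgk1 log2 ratio of 0.34 was lower than that of each of those 12, whose range was 0.43 to 3.73. The related kinases Sgk2 and Sgk3, named here after their values were seen, had log2 ratios of -0.01 and -0.08 and were not called.

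Tsc22d3, the glucocorticoid-induced leucine zipper protein, was read from a row that joins it with the unnamed locus AABR07040840.1 on chromosome X (111884295 to 111942749, as deposited). The joined row stood at 42.3 FPKM in SS.BN1 and 36.7 in SS (log2 ratio -0.21), with p = 0.307 and q = 1.00 in the authors' deposited table. The isoform annotated to Tsc22d3 alone had 37.0 and 30.6 FPKM, or 87.3% and 83.4% of the row. The AABR07040840.1 isoform had 0.579 and 1.65 FPKM, so the joined name added little to the row. Sgk1 and Tsc22d3 are both classical glucocorticoid-induced genes, and their values differed in opposite directions, neither one called.

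Cnksr3, a scaffold protein known from mouse collecting duct cells as an aldosterone-induced partner of Sgk1, Nedd4l and ENaC, stood at 13.1 FPKM in SS.BN1 and 88.2 in SS. The log2 ratio was 2.76 and q was 0.00266 in the authors' deposited table. The unadjusted p of 5e-05 is the smallest that table holds and is shared by 249 rows. In SS the gene was the most abundant of the 9, whereas in SS.BN1 it ranked below all of them except Scnn1b. Among the 440 rows called higher in SS it was the 43rd by fold, and 1 other row had both a fold and an SS level at least as high. It lies on chromosome 1 (43789791 to 43884267, as deposited), where it was the 8th by fold of the 62 rows called higher in SS (3.49% of the tested rows there).

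**Figure D2:**
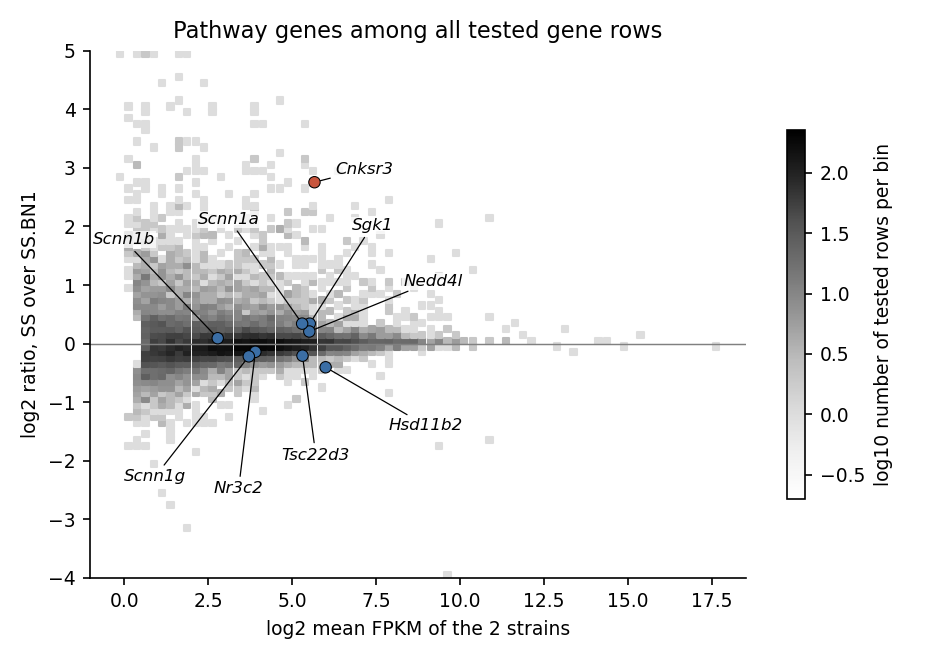
Log2 ratio of SS over SS.BN1 against log2 mean FPKM for all 13253 tested rows (grey squares, darker where a bin holds more rows, ratios beyond the axis drawn at its edge), with the 9 genes as points. Cnksr3 (red, called) sits at a log2 ratio of 2.76, and the 8 genes that were not called (blue) lie between -0.40 and 0.34.

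All 5 isoforms of Cnksr3 had the higher value in SS, from 2.99-fold to 14.2-fold. The isoform ENSRNOT00000024418 was called, at 5.28 FPKM in SS.BN1 and 24.7 in SS (4.68-fold, q = 0.0319 in the authors' deposited table). It was the 1 call among the 32 tested isoforms of the 9 genes, while 1.05% of all tested isoforms were called. The second annotated isoform (ENSRNOT00000082931) had 3.58 and 16.9 FPKM, a 4.72-fold difference that was not called (q = 0.999 in the authors' deposited table).

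The most abundant Cnksr3 isoform in SS was an assembled one without a name (MSTRG.359.5). Its level was 2.93 FPKM in SS.BN1 and 41.6 in SS, 14.2-fold, with p = 0.0142 and q = 0.569 in the authors' deposited table. Its share of the gene's FPKM was 22.5% in SS.BN1 and 47.2% in SS, a gap of 24.7 percentage points, while the 2 annotated isoforms together held 67.8% and 47.2%. No test of the shares can be made from 1 value per strain. The largest share shift among isoforms of the other 8 genes was 7.07 points, for the main isoform of Sgk1. How FPKM is divided among overlapping isoforms is an estimate by the authors' software, so isoform values are less certain than those of the gene.

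**Figure D3:**
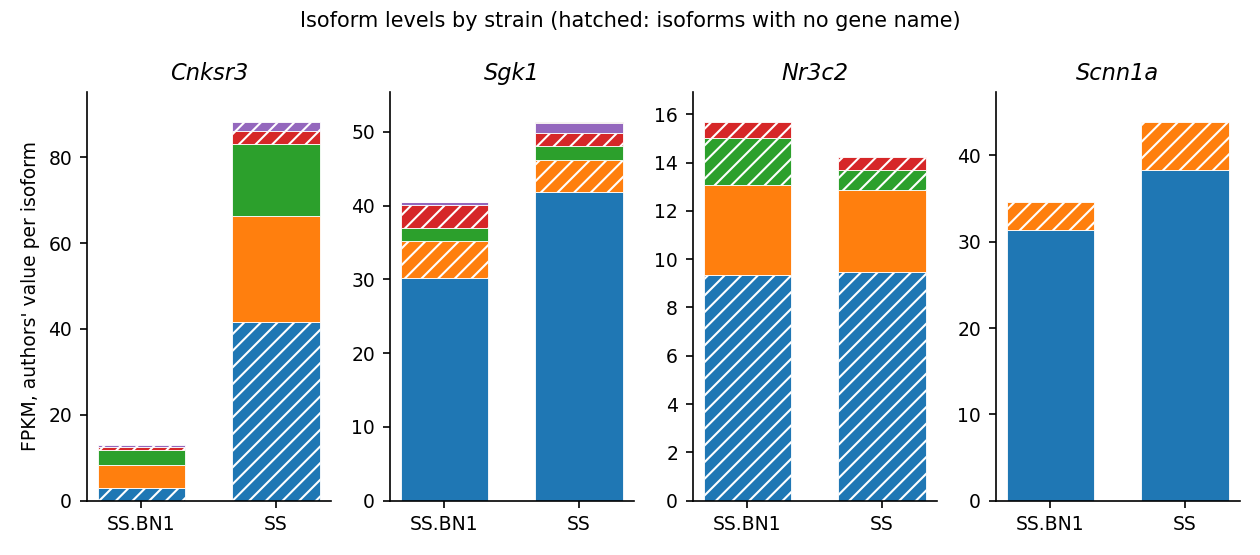
FPKM of each isoform of Cnksr3, Sgk1, Nr3c2 and Scnn1a, stacked per strain with each colour 1 isoform within a panel, hatched where the isoform has no gene name; the vertical scales differ between panels. In Cnksr3 the unnamed isoform at the base of the stack grows from 2.93 FPKM in SS.BN1 to 41.6 in SS, and the annotated isoforms above it are also higher in SS.

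The neighbourhood of Cnksr3 was examined within 1 Mb on each side, where 5 other rows were tested. Of these, 1 was called (3.77% of all tested rows on chromosome 1 were called), the row of Ipcef1, which encodes an interactor of cytohesin exchange factors. It joins Ipcef1 with AABR07001432.1 and stood at 1.39 FPKM in SS.BN1 and 4.70 in SS (3.38-fold, q = 0.0475 in the authors' deposited table). The same deposited coordinates are given for Oprm1, AABR07001432.2, AABR07001433.1 and an unnamed row, none of them tested. The unnamed row went the other way, from 1.75 FPKM in SS.BN1 to a listed value of 0 in SS. The other untested rows there had at most 0.0173 FPKM in a strain. The locus they share ends 84.8 kb before that of Cnksr3, and no row lies between them. On the other side, AABR07001435.1 (1.24-fold), Scaf8 (1.03-fold), Tiam2 and Tfb1m had log2 ratios from -0.07 to 0.31, with no call and no unadjusted p under 0.05 in the authors' deposited table. Those neighbours were named after their values were seen. No other row overlapped the Cnksr3 locus.

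**Figure D4:**
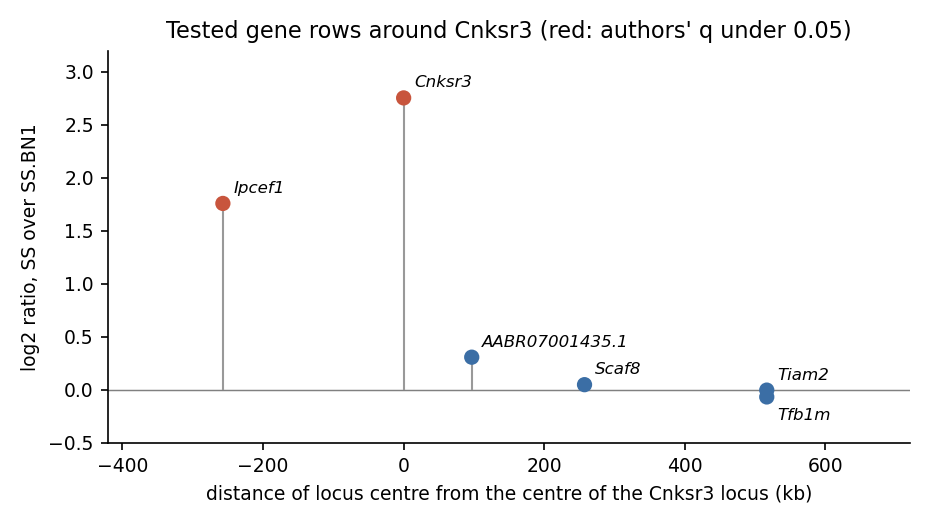
Log2 ratio of SS over SS.BN1 for the tested rows within 1 Mb of Cnksr3, against the distance in kb between locus centres (red, called by the authors; blue, not called). Cnksr3 and Ipcef1 stand at 2.76 and 1.76, and the 4 rows on the other side lie between -0.07 and 0.31.

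Chromosome 1 also carries Sgk1, Scnn1b and Scnn1g, so 4 of the 9 genes lie on the exchanged chromosome. Of those 4, 1 was called, beside 3.77% of all tested rows on chromosome 1. Of the 5 on other chromosomes none was, where 3.36% of all tested rows were called. The genes are too few for these counts to set the chromosomes apart. Sgk1 lies 19.5 Mb from Cnksr3, and Scnn1g lies 148 Mb away on the other side. Scnn1g and Scnn1b adjoin each other, 91.3 kb apart. Sgk1, Scnn1b and Scnn1g had log2 ratios of 0.34, 0.09 and -0.22, beside 2.76 for Cnksr3 on the same chromosome.

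Nedd4l, the HECT ubiquitin ligase that binds the tails of ENaC subunits, stood at 42.3 FPKM in SS.BN1 and 48.8 in SS (log2 ratio 0.21). Its p was 0.401 and its q 1.00 in the authors' deposited table. The locus on chromosome 18 (60391174 to 60723288, as deposited) was the most divided of the 9, with 17 isoforms, 3 of them annotated and 12 with at least 1 FPKM in a strain. The most abundant, ENSRNOT00000088624, had 14.5 FPKM in SS.BN1 and 19.5 in SS, which is 34.4% and 40.1% of the total. The authors' deposited table had no call and no unadjusted p under 0.05 among its 9 tested isoforms. The related ligase Nedd4, named here after its values were seen, stood above Nedd4l in both strains, at 94.1 FPKM in SS.BN1 and 90.1 in SS.

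The 3 ENaC subunits were detected in both strains, and none was called. Scnn1a, which encodes the pore-forming alpha subunit, had 34.6 FPKM in SS.BN1 and 43.8 in SS (log2 ratio 0.34, p = 0.171 and q = 1.00 in the authors' deposited table). Scnn1g, the gamma subunit, had 14.0 and 12.1 FPKM (log2 ratio -0.22, p = 0.341 in the authors' deposited table). Scnn1b, the beta subunit, was the least abundant of the 9 genes, with 6.65 and 7.08 FPKM (log2 ratio 0.09, p = 0.856 in the authors' deposited table).

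The order of the subunits was alpha, gamma, beta in both strains on the per-length FPKM scale. Alpha stood 5.21 times above beta in SS.BN1 and 6.19 times above it in SS. Alpha made up 62.6% of the summed subunit FPKM in SS.BN1 and 69.6% in SS, gamma 25.4% and 19.1%, and beta the remainder. The sum itself was 55.3 FPKM in SS.BN1 and 63.0 in SS. These orders rest on single values per strain, so no spread can be set against the gaps between neighbours.

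In the kidney the ENaC subunits and Hsd11b2 are best known from principal cells, whose 7 markers were all lower in SS. Among the subunits and Hsd11b2, Scnn1g and Hsd11b2 stood lower in SS, whereas Scnn1a and Scnn1b stood higher. The part of principal cell RNA in the subunit values was not tested.

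Scnn1a (chromosome 4, 157822840 to 157860049, as deposited) had an annotated isoform with 90.6% of its FPKM in SS.BN1 and 87.5% in SS, and an unnamed one with the rest. Scnn1g (chromosome 1, 191704311 to 191738268) likewise had 1 annotated isoform, at 89.2% and 87.4%, and 1 unnamed isoform. Scnn1b (chromosome 1, 191829555 to 191948977) had a single isoform. The deposited locus of Scnn1a overlaps that of Ltbr, a cytokine receptor gene, and that of Scnn1b overlaps Cog7, a Golgi complex gene. Libraries were stranded, but whether strand was used in the counting was not given in the sources used here, which leaves both values uncertain.

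Small differences in these genes may have been beyond the reach of the authors' test. Among the 6908 tested rows with a mean level between those of Scnn1b and Hsd11b2, 252 were called (3.65%), and the smallest called difference was 1.58-fold. Each of the 8 genes that were not called differed by less than that. The number of the 9 genes called remained 1 at a q under 0.01 (2.22% of all tested rows), at a q under 0.1 (4.07%) and among rows with a mean of at least 5 FPKM after readjustment (3.81%). A p above the threshold does not show that the strains had equal levels.

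A list of 24 further genes that corticosteroids are known to induce had 23 tested members, of which 9 were called higher in SS. None was called lower, the median log2 ratio was 0.47, and 17 of the 23 had the higher value in SS. For all tested rows, 3.32% were called higher in SS and the median was 0.0011. The list, like the others here, was drawn up with earlier results of these data known, so its counts describe and do not test. The largest called differences were in Errfi1, a feedback inhibitor of the EGF receptor (39.6 FPKM in SS.BN1 and 197 in SS), and in Angptl4, a lipase inhibitor (13.4 and 65.7 FPKM). Cebpd and Cebpb, transcription factors of the acute-phase response, had 7.24 and 31.4 FPKM and 11.8 and 42.2 FPKM. The metallothionein Mt1, a metal-binding protein, had 276 FPKM in SS.BN1 and 1144 in SS, and its relative Mt2A had 836 and 2038.

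The other 3 called members, named after their values were seen, were Nfkbia, the inhibitor of NF-kB (2.80-fold), Rasd1, a small GTPase (2.29-fold), and Dusp1, a MAP kinase phosphatase (1.77-fold). As background, several of the called genes, such as Cebpb, Nfkbia, Dusp1 and the metallothioneins, respond to cytokines, growth factors, metals or cell stress as well as to steroids. The members that were not called included 4 more that are named after their values were seen. Per1, a clock gene, had 22.1 FPKM in SS.BN1 and 20.5 in SS. Fkbp5, a receptor co-chaperone, had 8.71 and 10.4 FPKM, and Zbtb16, a zinc finger repressor, had 2.77 and 3.80. Klf9, a zinc finger transcription factor, had 32.8 and 49.2 FPKM, with p = 0.00385 and q = 0.0948 in the authors' deposited table.

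Tsc22d3 and Sgk1 had ratios in the range of the list members that were not called, from -0.69 to 0.58. Immediate early genes and proximal tubule markers had higher values in SS, as the called members did. All 7 principal cell markers and all 6 tested intercalated cell markers had lower values in SS. Immediate early genes had 11 calls of 12, against 3.32% of all tested rows called higher in SS, and summed to 1016 FPKM in SS.BN1 and 2311 in SS. Of 8 tested proximal tubule markers, 7 were called higher in SS (3.32% over all tested rows), with sums over all 10 of 172 and 436 FPKM and none at 0 in both strains. Most of those sums came from Kap, with 120 FPKM in SS.BN1 and 290 in SS. The part of immediate early genes or of proximal tubule RNA in the differences of Cnksr3 or of the steroid-responsive list was not tested.

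**Figure D5:**
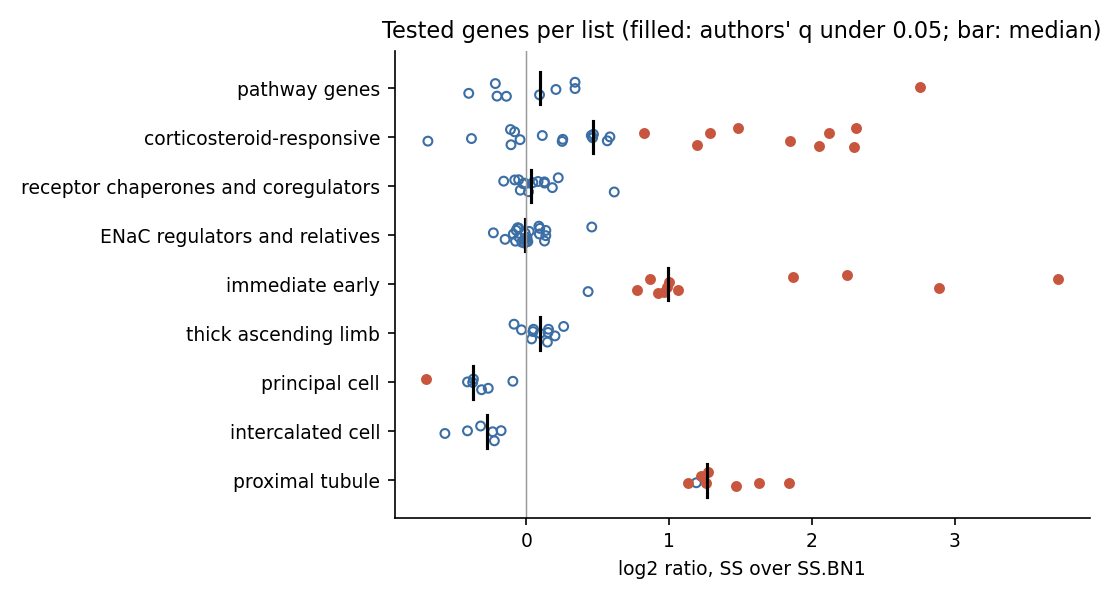
Log2 ratio of SS over SS.BN1 for each tested gene, grouped by list (filled red, called by the authors; open blue, not called; black bar, median; vertical scatter is for visibility only). The ENaC regulators and receptor chaperones cluster at 0 with medians of -0.01 and 0.03, while the steroid-responsive list is spread from -0.69 to 2.31.

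Regulators and relatives of ENaC gave no call among 24 tested genes of 30 listed (3.42% over all tested rows), and none had an unadjusted p under 0.05 (7.55% over all tested rows) in the authors' deposited table. At that background rate a list of this size may hold no call, so the count says little about it. Their median log2 ratio was -0.01, within a range of -0.23 to 0.46. The most abundant were Spint2, an inhibitor of channel-activating proteases (847 FPKM in SS.BN1 and 904 in SS), and Plau, the urokinase protease (725 and 996 FPKM, p = 0.0642 in the authors' deposited table). Prss8, or prostasin, and Furin, proteases that cleave and activate the channel, stood at 57.5 and 63.2 FPKM and at 39.2 and 37.3 FPKM. The last pair were named after their values were seen.

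Chaperones and coregulators of the steroid receptors also gave no call among 14 tested genes (3.42% over all tested rows, again too few for the count to say much), with a median log2 ratio of 0.03 and 1 unadjusted p under 0.05 in the authors' deposited table. The most abundant were Hspa8, a heat shock cognate chaperone (357 FPKM in SS.BN1 and 547 in SS, p = 0.0130 in the authors' deposited table), and Hsp90ab1, the chaperone that holds the unliganded receptor (273 and 318). The sign of that small median depends on scaling, being -0.05 with quantile normalization. The count of genes with the higher value in SS was then 5 of the 14, against 8 as deposited, and 4 of the 24 ENaC regulators, against 10.

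Of 10 steroid enzymes and other steroid receptors, 2 passed the authors' filter for testing, and neither was called nor had an unadjusted p under 0.05 in the authors' deposited table. Hsd11b1, which regenerates active glucocorticoid and so opposes Hsd11b2, stood at 9.48 FPKM in SS.BN1 and 13.6 in SS. H6pd, which supplies the cofactor of Hsd11b1, stood at 7.69 and 10.3 FPKM. Hsd11b1 and Hsd11b2 had opposite directions, and in both strains the inactivating enzyme was the more abundant of the pair on the FPKM scale.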

How the data were processed

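Per the submitters' processing notes, cutadapt, FastQC, TopHat2 2.1.1, StringTie, Cufflinks 2.2.1 and the build rn5 were used, with no role or order given. The authors deposited FPKM values, 1 per strain and gene or isoform, with a test score, p-value and q-value, in columns named as Cuffdiff names them. The sources used here do not say how a strain's 6 libraries were merged into 1 value. A deposited table gives the read count of each mate and the percent of reads mapped per library, per the file headers. Because 6832 rows carry contig names (AABR07) of a later assembly, the coordinates' build is not settled; positions are those deposited, shifted to 1-based starts.

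Log2 ratios are of the authors' FPKM, without a pseudocount. Calls are the authors' q under 0.05, which Benjamini-Hochberg adjustment over the 13253 tested rows gave back to within 5.27e-07. A limma fit would have needed values per library. The percent mapped was compared by exact permutation (924 assignments). Members and lists were chosen with earlier results of these data known. Named are all members and some of their isoforms with at least 1 FPKM. For the steroid-responsive, chaperone, steroid enzyme and ENaC regulator lists, up to 5 called genes by smallest q plus the 2 most abundant are named, with exceptions stated. The immediate early, intercalated cell, endothelial and immune lists are given as sets, as is the proximal tubule list apart from Kap. A symbol was matched against gene names split at commas, and Ep300, Cyp11b2, Scnn1d, Hspa1b and Pecam1 from the lists were not analysed here. Code was tested on simulated data. Alternatives were pseudocounts, scaling, summed isoforms, expression filters and other thresholds. Python 3.11.15, NumPy 2.4.6, pandas 2.3.3 and matplotlib 3.10.9 were used.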

Additional observations from a re-analysis of the deposited data

How the results depend on the processing

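The log2 ratios of the 9 genes kept their sign under pseudocounts of 0.1 and 1 FPKM, median centring, quantile normalization and summed isoforms, and the folds they stand for changed by less than 1.5 times; Cnksr3 ranged from 2.66 to 2.76. On the log2 scale Hsd11b2 moved most, from -0.40 to -0.50 with quantile normalization. The same scaling took Scnn1b from 0.09 to 0.04 and Nedd4l from 0.21 to 0.12. Quantile normalization shifted the median of all tested rows by -0.07. Summed isoforms gave back the gene FPKM almost exactly, so that setting was no separate check. The 1 call among them stood at q under 0.01 and under 0.1, with a 1.5-fold minimum, and among rows with a mean FPKM of at least 1 or 5. Alternatives added after the data were seen split the genes by chromosome and varied the calls of the lists. The split gave 0 calls among the 5 genes off chromosome 1, where 3.36% of all tested rows were called. The steroid-responsive count stayed within 1.5 times under each, while the principal cell call (Aqp2) was lost at q under 0.01 (1 to 0) and the endothelial count of 1 became 0 at q under 0.01 and 2 at q under 0.1. With 1 value per strain, no animal could be left out and no spread computed, and the sources used here do not say how the authors' p reflects variation between animals. No paired analysis was possible because the labels pair no animals and the tables hold 1 value per strain.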

Other observations

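Other members of the group had called rows within 1 Mb of their own loci, each with the higher value in SS, per the authors' deposited table, and named after their values were seen. Tnfrsf1a, a receptor of tumour necrosis factor, lies near Scnn1a and stood at 15.6 FPKM in SS.BN1 and 31.6 in SS, among 35 tested rows in that window. Cdr2, which lies near Scnn1g and Scnn1b on chromosome 1, had 5.08 and 11.4 FPKM, among 19 and 20 tested rows in their windows. Cldn2, a cation-permeable claudin of the proximal tubule, lies near Tsc22d3 and had 6.17 and 11.6 FPKM, among 10 tested rows. No row was called within 1 Mb of Sgk1 (3 tested), Nr3c2 (5 tested), Nedd4l (10 tested) or Hsd11b2 (45 tested). Over all tested rows, 3.42% were called and 3.32% were called higher in SS, so the counts in these windows say little about the loci.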
